A study of Mus musculus with 12 samples.

Results

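The interferon-inducible GTPases described here are 10 genes, the guanylate-binding protein genes Gbp2, Gbp3, Gbp4, Gbp5, Gbp6, Gbp7 and Gbp9 and the immunity-related GTPase genes Iigp1, Irgm1 and Igtp, among 55471 gene identifiers in the deposited count files. They were taken from a list of names, which was drawn up with earlier results of these data known, and no threshold on their values was applied; 17 other genes of these families are described separately. RNA was sequenced in 12 libraries, 3 from each of 4 mouse melanoma cell lines: MeVa2.1 and its namesake MeVa2.1.dOVA, and MeVa2.2 with its namesake MeVa2.2.dOVA. Values over all lines are given in that order. All 4 lines share the labels WT for genotype, untreated for treatment and skin or subcutaneous tumour for source, and they differ in the line name alone. In the title of the series the line MeVa2.1.dOVA is described as immune-refractory. What dOVA stands for is not spelled out in the labels, so each dOVA line is set here against the line whose name it extends. Nothing in the labels tells whether the 3 libraries of a line are separate cultures, and p-values therefore reflect the spread among these libraries alone, part or all of which may be technical.

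Guanylate-binding proteins and immunity-related GTPases are large GTP-hydrolysing proteins whose genes are switched on by interferons, most strongly by interferon gamma. Inside cells they gather on the membranes of vacuoles that hold bacteria or protozoa and on bacterial surfaces, where they help to break these open and to start inflammasome signalling. The immunity-related GTPases fall into effectors, such as Iigp1 (also called Irga6), and regulators, such as Irgm1 and Igtp (also called Irgm3), which sit on the cell's own membranes and keep the effectors inactive there. Tumour cells that sense interferon switch on the same genes, alongside those for antigen presentation.

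Total gene counts per library ranged from 16181816 to 35627069. Replicate 3 had the most in each line, at 35627069, 34744387, 26291546 and 33683165 counts. Levels are given as CPM, each gene's count scaled to the library's total of gene counts, and a count of 0 allows a level of up to 0.0842 to 0.185 CPM, depending on the library (3 counts, counting error only). MeVa2.2 replicate 2 stood apart from its line: over all tested genes its log2 CPM correlated at 0.969 with MeVa2.2.dOVA replicate 1 and at 0.932 to 0.956 with its own line. MeVa2.1 replicate 3 was also nearer to a library of the other line of its pair (0.979, MeVa2.1.dOVA replicate 3) than to its own line (0.969). MeVa2.1.dOVA replicate 2 correlated at 0.956 and 0.958 with its own line, against 0.983 between the other 2. Likewise MeVa2.2.dOVA replicate 3, the library that was highest for all 10 genes, correlated at 0.952 and 0.960 with its own line, against 0.985 between the other 2. Results are also given with MeVa2.2 replicate 2 and MeVa2.1.dOVA replicate 2 both left out, as the pair of libraries set apart, and leaving out MeVa2.1 replicate 3 or MeVa2.2.dOVA replicate 3 is among the fits without 1 library. The labelled cell type was checked against markers. The summed level of 9 melanocyte markers was 9.065 to 61.08 CPM over all libraries, while Axl, which encodes a receptor kinase that is typical of melanoma cells with few melanocyte features, was at 1243 to 1844 CPM. Of the other genes fixed as markers of such cells, Nes and Sox9 reached 451.8 and 63.17 CPM at most, but Ngfr and Egfr no more than 6.047 and 4.589 CPM. Among 19 immune cell markers, Cd3e, Cd4, Cd8a, Ms4a1 and Ncr1 had no count in any library, Ptprc (CD45) reached at most 0.237 CPM, and the summed level ranged from 5.613 to 17.44 CPM in MeVa2.1, 3.684 to 14.71 in MeVa2.1.dOVA, 5.53 to 10.71 in MeVa2.2 and 3.786 to 10.3 in MeVa2.2.dOVA. In bulk libraries such as these, fewer cells with a transcript and less transcript per cell cannot be told apart.

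Promoter windows show what several of these genes have in common in sequence. RefSeq windows of 300 bases, 250 before and 50 after the transcription start on GRCm38.p6, were matched for 6 of the 10 genes (Gbp2, Gbp3, Gbp5, Gbp7, Irgm1 and Igtp, with a second window for Gbp3). They were searched on both strands for the interferon-stimulated response element (ISRE) core, GAAA then any 2 bases then GAAA, a site of interferon regulatory factors, and for the gamma-activated site (GAS) TTCNNNGAA, which reads the same on both strands. All 6 genes held an ISRE match, against 3.44% of 32851 windows of the same length and 3.99% of 27025 genes with a window. Gbp5, Gbp7 and Igtp also held a GAS match, against 8.30% of windows, and both motifs stood together in 0.454% of windows. Gbp3 and Irgm1 each held 2 ISRE matches that overlap one another, and the second Gbp3 window held neither motif. A match is a run of letters and not evidence that a factor binds there. The stretches that carry the matches are shown because these shared letters are what the promoters have in common, in capitals for the matched bases, 5′ to 3′ on the strand of the gene. The Gbp2 stretch lies at chr3:142620594-142620623 and 22 of its 30 bases fall in an exon of GENCODE M21, the Gbp3 stretch at chr3:142559989-142560024, the Gbp5 stretch at chr3:142496684-142496899, the Gbp7 stretch at chr3:142530220-142530302, the Irgm1 stretch at chr11:48871425-48871460 on the minus strand and the Igtp stretch at chr11:58199501-58199541.
Gbp2: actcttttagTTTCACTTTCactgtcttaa
Gbp3: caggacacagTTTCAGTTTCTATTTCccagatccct
Gbp5: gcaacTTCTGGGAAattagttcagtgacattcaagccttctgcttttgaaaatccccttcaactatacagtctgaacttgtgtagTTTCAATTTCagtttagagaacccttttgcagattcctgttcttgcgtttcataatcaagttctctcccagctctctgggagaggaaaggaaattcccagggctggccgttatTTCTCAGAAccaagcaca
Gbp7: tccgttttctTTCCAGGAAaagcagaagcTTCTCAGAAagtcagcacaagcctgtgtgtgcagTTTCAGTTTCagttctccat
Irgm1: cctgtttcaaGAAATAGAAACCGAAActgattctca
Igtp: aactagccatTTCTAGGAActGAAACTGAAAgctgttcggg

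**Figure D1:**
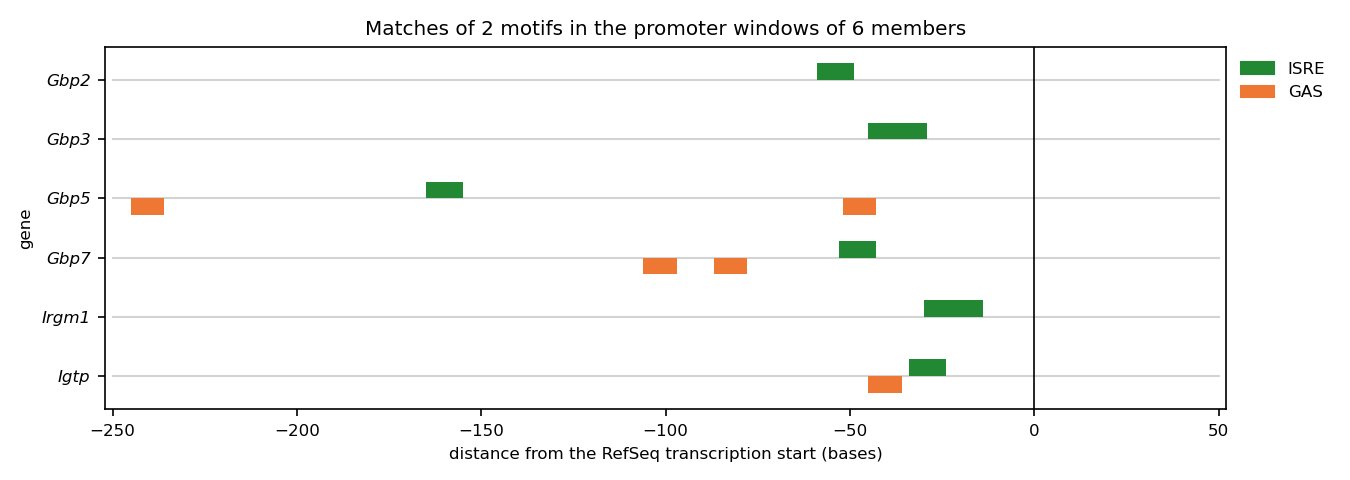
Position of ISRE (green) and GAS (orange) matches in the promoter windows of 6 genes, in bases from the RefSeq transcription start (vertical line); each row is one gene. The ISRE matches of Gbp2, Gbp3, Gbp7, Irgm1 and Igtp start 59, 45, 53, 30 and 34 bases before the start, while that of Gbp5 starts 165 bases before it.

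In 5 of the 6 windows the ISRE match lay within 59 bases of the start, and the exception was Gbp5, whose match began 165 bases upstream. In Igtp the GAS match (from 45 bases before the start) lay next to the ISRE match (from 34 bases before it).

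The 10 genes lie on 4 chromosomes of the GRCm38 assembly, with positions from GENCODE M21. Gbp2 (ENSMUSG00000028270, chr3:142620602-142638008), Gbp3 (ENSMUSG00000028268, chr3:142560026-142573209), Gbp5 (ENSMUSG00000105504, chr3:142493978-142522344) and Gbp7 (ENSMUSG00000040253, chr3:142530342-142550149) lie near one another on the plus strand of chromosome 3. Gbp4 (ENSMUSG00000079363, chr5:105115767-105139586), Gbp6 (ENSMUSG00000104713, chr5:105270702-105293698) and Gbp9 (ENSMUSG00000029298, chr5:105077630-105139539) lie on the minus strand of chromosome 5. Irgm1 (ENSMUSG00000046879, chr11:48861968-48871683, minus strand) and Igtp (ENSMUSG00000078853, chr11:58199556-58207591, plus strand) are both on chromosome 11, and Iigp1 (ENSMUSG00000054072, chr18:60376027-60392634, plus strand) is on chromosome 18. All 10 are annotated as protein-coding. Exons that overlap those of another gene on the same strand make counts uncertain: Gbp6 shares 29.0% of its exon bases (with Gm43302), Gbp7 11.3% (with Gm43802), Igtp 8.01% (with Irgm2), Gbp9 1.16% and Gbp4 0.814% (both with Gbp8 and with each other), and the other 5 genes share none. Reads that fit near-identical family members equally well are a further source of uncertainty for all of them.

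Levels of the chromosome 3 genes were low in both MeVa2.1 lines, intermediate and uneven in MeVa2.2 and highest in MeVa2.2.dOVA. Gbp3 measured 0.756, 0.573 and 1.10 CPM in replicates 1 to 3 of MeVa2.1 and 2.04, 1.84 and 1.04 CPM in those of MeVa2.1.dOVA. In MeVa2.2 it measured 15.03, 5.79 and 1.83 CPM, and in MeVa2.2.dOVA 38.8, 32.15 and 168 CPM. All 3 MeVa2.2.dOVA libraries lay above all other libraries, and replicate 3 held 70.3% of the line's summed CPM. The means were 0.808 ± 0.265, 1.64 ± 0.531, 7.55 ± 6.78 and 79.6 ± 76.6 CPM (SD, n = 3) in the 4 lines.

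Gbp2, a lipid-anchored member that is recruited to pathogen vacuoles, measured 2.48, 4.27 and 4.60 CPM in MeVa2.1 and 4.88, 6.15 and 2.76 CPM in MeVa2.1.dOVA. In MeVa2.2 it measured 16.75, 5.90 and 2.36 CPM, so that replicate 3 lay below all 6 libraries of the MeVa2.1 lines, and in MeVa2.2.dOVA 29.8, 22.5 and 69.4 CPM, above every other library. Gbp7 measured 2.65, 3.49 and 2.86 CPM in MeVa2.1 and 2.84, 2.70 and 1.12 CPM in MeVa2.1.dOVA. It measured 17.3, 4.69 and 1.83 CPM in MeVa2.2 and 24.4, 21.3 and 82.4 CPM in MeVa2.2.dOVA. In the MeVa2.2 lines the order of the libraries was the same as for Gbp2, with MeVa2.2 replicate 3 below all 3 MeVa2.1 libraries.

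Gbp5, a lipid-anchored member linked to inflammasome activation, was the least distinct of the 4. It measured 1.78, 0.625 and 0.365 CPM in MeVa2.1 and 1.30, 1.03 and 0.317 CPM in MeVa2.1.dOVA. It measured 4.02, 0.421 and 0.418 CPM in MeVa2.2 and 5.02, 2.03 and 9.11 CPM in MeVa2.2.dOVA. The lowest MeVa2.2.dOVA library stood above all MeVa2.1 and MeVa2.1.dOVA libraries but below MeVa2.2 replicate 1.

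The chromosome 5 genes were close to the detection limit outside MeVa2.2.dOVA. Gbp9 had 2, 0 and 1 counts in MeVa2.1, 1, 0 and 5 in MeVa2.1.dOVA, 8, 1 and 10 in MeVa2.2 and 30, 22 and 455 in MeVa2.2.dOVA, where the levels were 1.62, 1.17 and 13.5 CPM. Gbp6 had 0, 1 and 2 counts in MeVa2.1, 0, 3 and 0 in MeVa2.1.dOVA, 7, 2 and 0 in MeVa2.2 and 27, 20 and 226 in MeVa2.2.dOVA, where the levels were 1.46, 1.07 and 6.71 CPM. Both genes thus had their 3 highest libraries in MeVa2.2.dOVA. Gbp4 had 1, 4 and 88 counts in replicates 1 to 3 of MeVa2.2.dOVA and at most 2 counts in any other library, so that replicate 3 held 90.7% of the line's summed CPM. Its 93 pooled counts there, set against 2 in the parent line and 2 in MeVa2.1.dOVA, gave ratios of 40.7 (95% counting interval 11 to 341) and 44.8 (12.1 to 375).

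Irgm1, a regulator of the effector GTPases that is needed for resistance to mycobacteria, was highest in MeVa2.2.dOVA and uneven in MeVa2.2. It measured 11.45, 11.8 and 24.9 CPM in MeVa2.1 and 22.1, 17.3 and 15.25 CPM in MeVa2.1.dOVA. It measured 96.7, 40.5 and 26.7 CPM in MeVa2.2 and 146.2, 108.1 and 337.9 CPM in MeVa2.2.dOVA, and in each of these lines the lowest library stood above all 6 libraries of the MeVa2.1 lines. The means were 16.05 ± 7.69, 18.2 ± 3.53, 54.6 ± 37.0 and 197.4 ± 123.2 CPM (SD, n = 3) in the 4 lines.

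Igtp, a regulator found on the endoplasmic reticulum and lipid droplets, measured 1.94, 1.88 and 1.85 CPM in MeVa2.1 and 1.79, 1.55 and 0.547 CPM in MeVa2.1.dOVA. It measured 11.7, 5.42 and 1.14 CPM in MeVa2.2 and 29.0, 20.3 and 71.8 CPM in MeVa2.2.dOVA. The 3 MeVa2.1 libraries differed by less than those of any other line, and MeVa2.2 replicate 3 lay below them.

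Iigp1, the effector of the group, was the gene nearest to an on and off pattern. It had 1, 1 and 2 counts in MeVa2.1 and 0, 0 and 1 count in MeVa2.1.dOVA. It had 114, 7 and 19 counts in MeVa2.2 (6.75, 0.369 and 0.723 CPM) and 213, 137 and 1415 counts in MeVa2.2.dOVA (11.5, 7.31 and 42.0 CPM). No library of the MeVa2.1 lines overlapped with either MeVa2.2 line, and all 3 MeVa2.2.dOVA libraries lay above all 3 MeVa2.2 libraries.

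**Figure D2:**
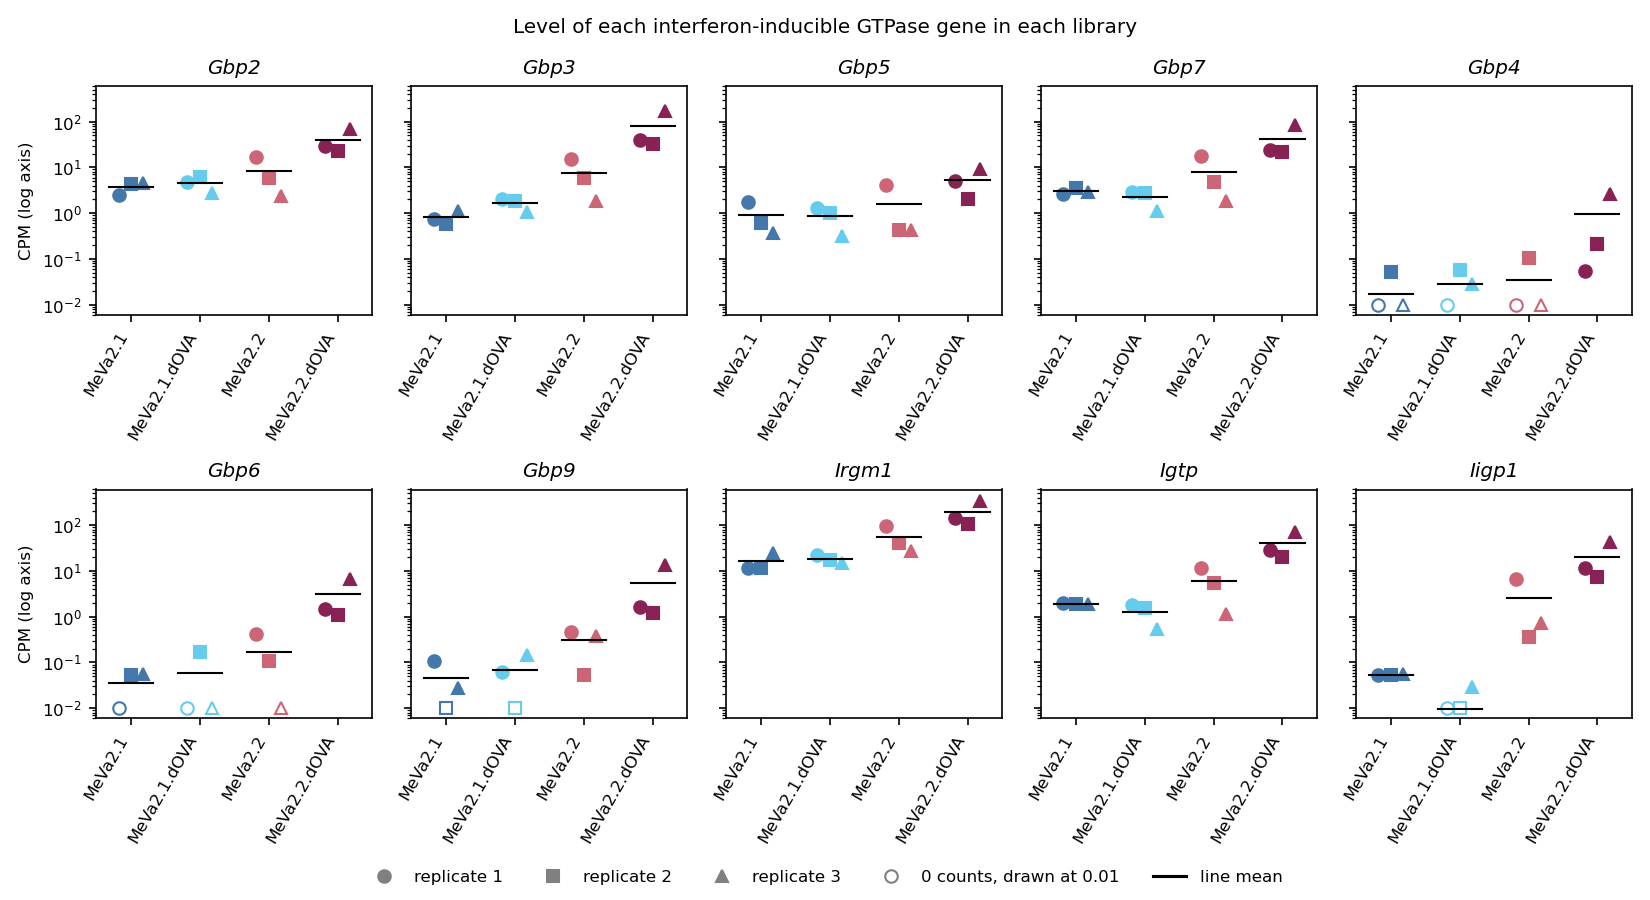
Level of each of the 10 genes in each of the 12 libraries, in CPM on a log axis, by line; symbols mark the replicate number, open symbols 0 counts (drawn at 0.01) and horizontal bars the line mean. In the MeVa2.2.dOVA line replicate 3 (triangle) is highest for all 10 genes, and Gbp3 reaches 168 CPM there against 1.10 CPM at most in MeVa2.1.

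Summed over the 10 genes, the level was 21.22 to 35.84 CPM in MeVa2.1, 21.24 to 35.04 in MeVa2.1.dOVA, 35.41 to 169.1 in MeVa2.2 and 216.1 to 803.5 in MeVa2.2.dOVA. The genes moved together from library to library inside the MeVa2.2 lines. MeVa2.2.dOVA replicate 3 was highest for 10 of 10 genes and replicate 2 lowest for 9, and MeVa2.2 replicate 1 was highest for 9 and replicate 3 lowest for 7. The median SD of log2 CPM between the 3 libraries was 1.48 for the 9 tested genes in MeVa2.2, where all tested genes gave 0.38, and in MeVa2.2.dOVA it was 1.01, where all gave 0.36. In MeVa2.1 it was 0.41 against 0.27, and in MeVa2.1.dOVA 0.70 against 0.32.

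Per kilobase of exon, Irgm1 was the most abundant of the 10 in MeVa2.2.dOVA at 33.97 ± 21.2 CPM per kb, followed by Gbp3 (24.4 ± 23.5), Igtp (19.96 ± 13.6), Gbp2 (16.13 ± 10.04) and Gbp7 (7.61 ± 6.13, SD, n = 3). Lower levels per kb were those of Iigp1 (3.48 ± 3.25), Gbp9 (1.05 ± 1.35), Gbp5 (0.811 ± 0.536), Gbp6 (0.517 ± 0.529) and Gbp4 (0.128 ± 0.191). Every neighbouring pair in this order differed by less than the larger SD of the pair, but these SDs reflect a spread that the genes share. Library by library, Gbp3 stood above Igtp and Gbp9 above Gbp5 in replicate 3 alone. The other neighbouring pairs kept this order in every MeVa2.2.dOVA library. In MeVa2.1 the order was led by Irgm1 (2.76 ± 1.32 CPM per kb), Gbp2 (1.51 ± 0.453) and Igtp (0.935 ± 0.024), with Gbp3 at 0.247 ± 0.081. Gbp3 thus stood below Gbp7 (0.534 ± 0.078) in MeVa2.1 and above it in MeVa2.2.dOVA.

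**Figure D3:**
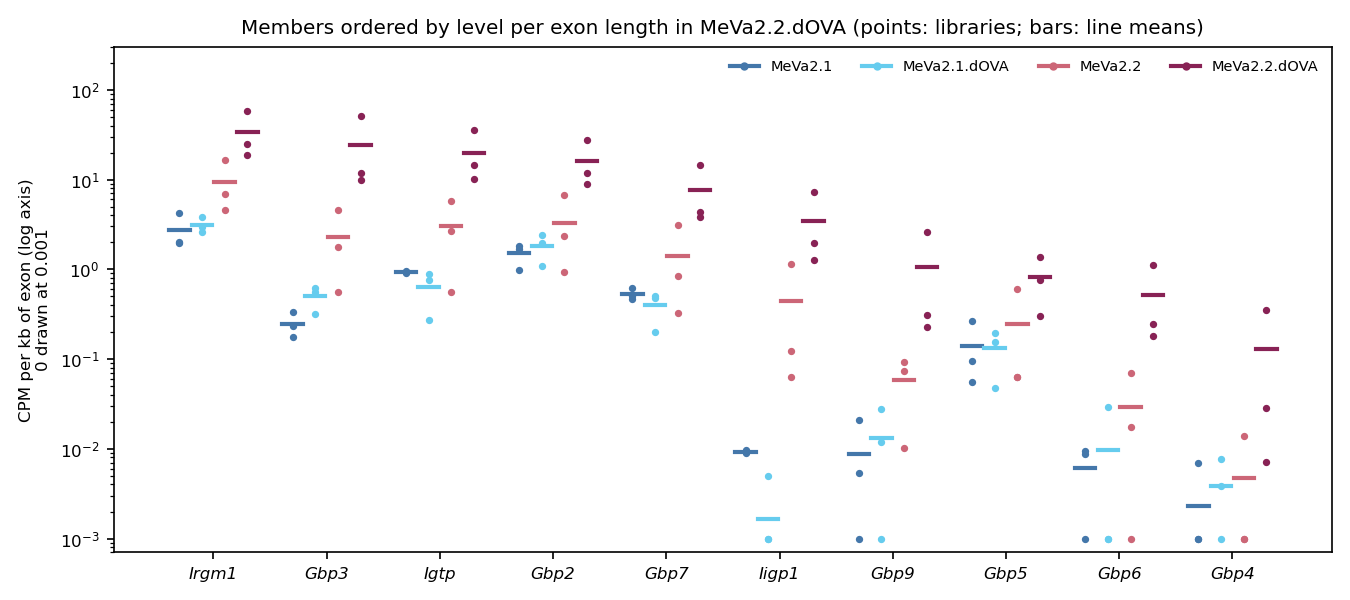
Level per kilobase of exon (CPM per kb, log axis, 0 drawn at 0.001) of the 10 genes in the 4 lines, ordered by their mean in MeVa2.2.dOVA; points are libraries and bars line means. Irgm1 leads in all lines, and Iigp1 spans from 0.002 CPM per kb in MeVa2.1.dOVA to 3.48 in MeVa2.2.dOVA.

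Differences between lines were tested with edgeR's quasi-likelihood test on all 12 libraries, with Benjamini-Hochberg adjustment over 13985 genes, and a gene is said to rise or fall only at an adjusted p under 0.05. The filter on low counts kept 9 of the 10 genes and removed Gbp4. Gbp6, Gbp9 and Iigp1 reached the level the filter asks for (0.53 CPM) in no library of the MeVa2.1 lines and passed through the MeVa2.2 lines alone. All 3 MeVa2.2.dOVA libraries reached it for each gene, and in MeVa2.2 2 libraries did for Iigp1 and 0 for Gbp6 and Gbp9. These genes therefore had to be higher in MeVa2.2.dOVA than in the MeVa2.1 lines, while the comparison of the parents was not fixed in this way. Counts and medians over the 9 genes are therefore descriptions. When asked whether their level differed among the 4 lines in any way, 8 of the 9 passed (edgeR quasi-likelihood test, lowest adjusted p = 0.0005997 for Gbp3), against 14.2% of all genes tested. The 8 include Gbp2, Gbp3, Gbp7, Irgm1 and Igtp, which reached the filter level in all 12 libraries. Gbp5 did not pass, at an adjusted p = 0.139, but passed with the replicate number as a block (adjusted p = 0.0329 in the edgeR test).

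The immune-refractory line MeVa2.1.dOVA was first set against MeVa2.1. None of the 9 genes rose or fell. By edgeR 0 of 9 were past the threshold, against 0.486% of all genes, and 0 had an unadjusted p under 0.05. DESeq2 called 0, against 2.31% of all genes. Log2 fold changes were positive for 5 of 9 genes, against 50.3% of all genes, with a median of 0.18 (all genes 0.00) and a lowest adjusted p of 0.721 in the edgeR test. Gbp3 had the largest positive value (0.96, SE 0.80) and Iigp1 the most negative (-1.61), the latter resting on 1 count against 4, a ratio of 0.268 (95% counting interval 0.00545 to 2.71). Igtp (-0.59, SE 0.74) and Iigp1 were the genes whose libraries did not overlap, both lower in MeVa2.1.dOVA, as were 10.4% of all genes. Irgm1, the best measured of the 10, differed by 0.18 (SE 0.50).

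MeVa2.2.dOVA was set against MeVa2.2 in the same way. Gbp3 rose by 3.35 on the log2 scale (SE 0.76, adjusted p = 0.0486 in the edgeR test), and the other 8 genes had positive values that did not pass. All 9 log2 fold changes were positive, against 48.2% of all genes, and they ranged from 1.72 (Gbp5, SE 0.93) to 4.19 (Gbp6, SE 1.16) with a median of 2.69 (all genes -0.02). Of the 9, 1 was called higher, against 0.422% of all genes, 8 had an unadjusted p under 0.05, against 6.70%, and 8 had no overlap between the libraries of the lines, against 9.83%. Gbp6 and Gbp9 are in both counts of 8 and had to be higher because of the filter. The values were 4.08 (SE 1.05) for Gbp9, 2.93 (SE 0.92) for Iigp1, 2.69 (SE 0.71) for Igtp, 2.39 (SE 0.74) for Gbp7, 2.25 (SE 0.64) for Gbp2 and 1.81 (SE 0.51) for Irgm1. The adjusted p-values of these 6 lay between 0.0772 and 0.138 in the edgeR test. The call of Gbp3 is near the threshold and was lost when any 1 of the 12 libraries was left out. DESeq2 called 8 of the genes, all but Gbp5 and Gbp4, against 5.89% of all genes. Without MeVa2.2.dOVA replicate 3 the median fell to 1.87, with all 9 values still positive, and without the pair of libraries set apart it was 2.42 with 0 genes called. Fibroblast markers moved in the opposite direction in this comparison, where 3 of 7 fell, against 1.57% of all genes. Their log2 fold changes were -6.49 for Thy1, -2.61 for Pdgfra and -2.49 for Dcn. The summed level of the 7 markers was 550.8 to 1839 CPM in the parent and 267.9 to 1175 CPM in MeVa2.2.dOVA. Of 6 tested melanocyte markers 1 fell (Ednrb, -7.47), with summed levels of 14.8 to 61.08 and 9.065 to 16.56 CPM. The part of either list in the result was not tested. In the MeVa2.1 pair 1 of 7 fibroblast markers fell in the dOVA line, Dcn (-2.32), against 0.386% of all genes. Thy1 (-6.85) and Fap (-4.86) were called by DESeq2 and with the replicate block but not by the edgeR test without it. The summed level overlapped, at 856.1 to 1360 CPM in MeVa2.1 and 759.1 to 1438 CPM in MeVa2.1.dOVA.

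The parent lines were compared as MeVa2.2 against MeVa2.1. Gbp3 rose by 3.16 on the log2 scale (SE 0.80, adjusted p = 0.0483 in the edgeR test). For Iigp1, which edgeR also called, the pooled counts were 140 against 4, a ratio of 41.3 (95% counting interval 15.8 to 154). Iigp1 reached the filter level in 2 libraries of MeVa2.2 and in 0 of MeVa2.1. Of all genes 1.66% were called higher. All 9 values were positive, against 51.8% of all genes, with a median of 1.75 (all genes 0.02), and 4 had an unadjusted p under 0.05, against 8.02%. Gbp3, Iigp1 and Irgm1 had no overlap between the lines, against 11.4% of all genes. Irgm1 measured 1.75 (SE 0.51, adjusted p = 0.0835 in the edgeR test). The others ranged from 0.78 (Gbp5, SE 0.95) to 2.69 (Gbp9, SE 1.38). The values rest to a large part on MeVa2.2 replicate 1: without it the median was 0.79 and neither gene was called, and without the pair of libraries set apart Iigp1 was called and Gbp3 was not. Of the other single libraries, leaving out any library of MeVa2.1, replicate 1 or 3 of MeVa2.1.dOVA, or replicate 1 of MeVa2.2.dOVA removed both calls, and leaving out MeVa2.1.dOVA replicate 2 or MeVa2.2 replicate 2 removed that of Gbp3. Melanocyte markers moved the same way: 1 of 6 tested rose (Ednrb, 2.81) and 4 had a higher value at an unadjusted p under 0.05. Their summed level was 61.08, 14.8 and 23.96 CPM in replicates 1 to 3 of MeVa2.2, against 15.15 to 27.32 CPM in MeVa2.1, and so was highest in the library that the GTPase values rest on. Their part in the result was not tested.

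The largest differences were between the dOVA lines. Set against MeVa2.1.dOVA, MeVa2.2.dOVA had 8 of 9 genes higher and none lower, against 4.81% of all genes called higher. Gbp3 rose by 5.56 (SE 0.85, adjusted p = 0.00191), Igtp by 4.94 (SE 0.81, adjusted p = 0.00267), Gbp7 by 4.22 (SE 0.81, adjusted p = 0.00665), Irgm1 by 3.38 (SE 0.54, adjusted p = 0.00233) and Gbp2 by 3.09 (SE 0.66, adjusted p = 0.0122), all on the log2 scale in the edgeR test. These 5 reached the filter level in all 12 libraries. Iigp1, with 1765 pooled counts against 1, gave a ratio of 1700 (95% counting interval 305 to 67200), Gbp6, with 273 against 3, a ratio of 87.6 (29.7 to 427), and Gbp9, with 507 against 6, a ratio of 81.4 (37.1 to 223). These last 3 had to differ because of the filter. Gbp5 had the smallest difference, 2.58 (SE 0.97, adjusted p = 0.112), and passed with the replicate number as a block (2.81, adjusted p = 0.0342 in the edgeR test). All 9 genes had no overlap between the lines, against 16.0% of all genes, and positive values, against 49.6%, with a median of 4.94 (all genes -0.01). The same 8 genes were called without MeVa2.2.dOVA replicate 3 (median 4.03) and without the pair of libraries set apart (median 5.14). Leaving out MeVa2.1.dOVA replicate 1 or replicate 3 removed Gbp2 and Gbp6 from the calls (adjusted p between 0.0504 and 0.0753 in the edgeR test).

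**Figure D4:**
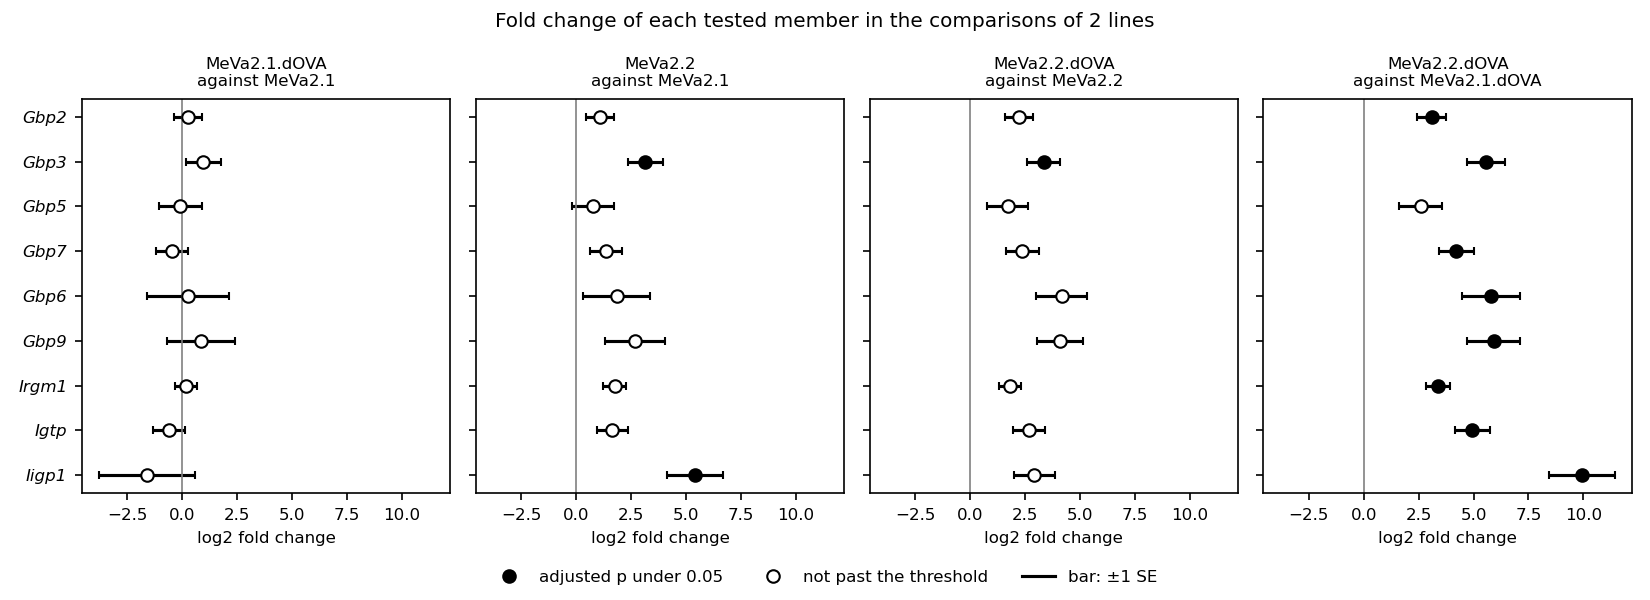
Log2 fold change of the 9 tested genes in the 4 comparisons of lines; bars are ±1 SE, filled points have an adjusted p under 0.05 and open points do not. Filled points number 0 for MeVa2.1.dOVA against MeVa2.1, 2 for MeVa2.2 against MeVa2.1, 1 for MeVa2.2.dOVA against MeVa2.2 and 8 for MeVa2.2.dOVA against MeVa2.1.dOVA.

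Whether the dOVA difference was larger in the MeVa2.2 pair than in the MeVa2.1 pair was tested directly. By edgeR 0 of 9 genes passed, against 0.0858% of all genes. At an unadjusted p under 0.05 there were 5, all with the larger difference in the MeVa2.2 pair, against 3.90% of all genes. DESeq2 called 1, Igtp, against 1.74% of all genes. All 9 values were positive, against 47.8% of all genes, from 1.63 (Irgm1, SE 0.70) to 4.54 (Iigp1, SE 2.49), with a median of 2.86 (all genes -0.02). Gbp6 and Gbp9, which passed the filter through MeVa2.2.dOVA alone, are among the 9. Without MeVa2.2.dOVA replicate 3 the median was 1.40 and 1 gene had an unadjusted p under 0.05, and with the replicate number as a block, or without the pair of libraries set apart, 2 had. Leaving out any of the other libraries left 2 to 8 such genes. Igtp came nearest to the threshold, at 3.28 (SE 1.02, adjusted p = 0.316 in the edgeR test).

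The 9 tested genes rose and fell together over the 12 libraries. Pearson's r of log2 CPM over the 36 pairs of genes ran from 0.768 to 0.989 with a median of 0.924, as a description of 12 libraries that include the same 4 lines. Their mean log2 CPM was -0.07, -0.15 and -0.05 in MeVa2.1, 0.10, 0.15 and -0.54 in MeVa2.1.dOVA, 2.78, 0.90 and 0.25 in MeVa2.2 and 3.76, 3.34 and 5.41 in MeVa2.2.dOVA. The other genes whose pattern was most like this mean were Parp14 (r = 0.989), Oas3 (0.985), Trim34a (0.984), Oas2 (0.984) and Stat2 (0.984), over 12 libraries each. Parp14, an ADP-ribosyltransferase, measured 3.99 ± 0.733, 3.66 ± 1.68, 16.2 ± 16 and 117 ± 62.7 CPM (SD, n = 3) in the 4 lines. Oas2, a synthetase of the 2′-5′ oligoadenylates that activate RNase L, measured 0.018 ± 0.0312, 0 ± 0, 0.285 ± 0.37 and 16.2 ± 20 CPM. Oas2 and Oas3 (means of 0.0174 and 0 CPM in MeVa2.1 and MeVa2.1.dOVA) passed the filter on low counts through the MeVa2.2 lines alone. The likeness of these genes was thus in part set by the filter.

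Other GTPases of these families, 17 genes in all and 10 of them tested, were described by the same test. Tgtp2, Gm12250, Gvin1 and Gm4070 reached the filter level in no library of the MeVa2.1 lines and passed through the MeVa2.2 lines alone. These genes therefore had to differ from the MeVa2.1 lines. In MeVa2.1.dOVA against MeVa2.1 edgeR called 0 of 10, with 1 at an unadjusted p under 0.05, and DESeq2 called 0. In MeVa2.2 against MeVa2.1 edgeR called 0 of 10, with 3 higher at an unadjusted p under 0.05, against 8.02% of all genes. DESeq2 called 2 (Gm4070 and Gvin1), against 7.85%, and edgeR with the replicate number as a block 2 (Gm4070 and Ifi47), against 9.51%. In MeVa2.2.dOVA against MeVa2.2 Gvin1, a very large interferon-inducible GTPase, rose by 3.63 on the log2 scale (SE 0.76, adjusted p = 0.0404 in the edgeR test), with 42, 51 and 151 counts against 8, 5 and 1. Gvin1 reached at most 0.4735 CPM in MeVa2.2 and passed the filter through MeVa2.2.dOVA alone, so that it had to be higher there. Between the dOVA lines 5 of 10 were higher in MeVa2.2.dOVA and 1 lower, against 4.81% and 6.45% of all genes. Tgtp2, Gvin1 and Gm4070 are among the 5 and had to be higher because of the filter. Irgm2, the third regulator of the immunity-related GTPases, measured 4.08, 3.91 and 1.90 CPM in MeVa2.1.dOVA and 36.3, 36.9 and 141.3 CPM in MeVa2.2.dOVA, a rise of 4.39 (adjusted p = 0.00381 in the edgeR test). Gvin1, with 244 pooled counts against 3, gave a ratio of 78.3 (95% counting interval 26.5 to 382), and Gm4070, with 211 against 2, a ratio of 102 (27.8 to 844). The fall was that of 9930111J21Rik1 (by 2.03 on the log2 scale, SE 0.53, adjusted p = 0.0313 in the edgeR test), a family member named after its values were seen, which measured 10.75, 7.35 and 9.96 CPM in MeVa2.1.dOVA and 1.78, 1.12 and 4.16 CPM in MeVa2.2.dOVA. Of the 17 genes, 11 had a promoter window, 7 of these held an ISRE match and 5 both motifs.

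The genes that carry the interferon signal were read from ligands to transcription factors. Of 20 interferon genes, 18 had no count in any library, Ifng among them. Ifnb1, which encodes interferon beta, had no count in the MeVa2.1 lines, 5, 0 and 0 counts in MeVa2.2 and 9, 2 and 2 counts in MeVa2.2.dOVA. The levels of Ifnb1 in MeVa2.2.dOVA were 0.485, 0.107 and 0.0594 CPM. The library with the most Ifnb1 counts was replicate 1 in both lines, which in MeVa2.2 was the highest for 9 of the 10 GTPases and in MeVa2.2.dOVA for 0 of 10.

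Of 18 genes for interferon receptors, kinases, transcription factors and feedback inhibitors, 16 were tested. In MeVa2.1.dOVA against MeVa2.1 edgeR called 0 of 16, with 1 at an unadjusted p under 0.05, and DESeq2 called 0. In MeVa2.2.dOVA against MeVa2.2 edgeR called 0 of 16. At an unadjusted p under 0.05 there were 6 higher and 1 lower, against 6.70% and 9.73% of all genes, and DESeq2 called 3 (Irf1 and Stat2 among them), against 5.89%. Between the parent lines 2 were higher in MeVa2.2 (Irf9 and Usp18) and 2 lower (Tyk2 and Socs3), against 1.66% and 2.82% of all genes. Between the dOVA lines 5 were higher in MeVa2.2.dOVA (Stat2, Irf9, Usp18 and Ifngr2 among them) and 2 lower (Tyk2 and Socs3), against 4.81% and 6.45% of all genes. Usp18 reached at most 0.1149 CPM in the MeVa2.1 lines and passed the filter through the MeVa2.2 lines alone. It therefore had to differ from the MeVa2.1 lines in both comparisons. Socs3, a suppressor of cytokine signalling, measured 33.1 to 38.0 CPM in MeVa2.1.dOVA and 13.0 to 16.2 CPM in MeVa2.2.dOVA.

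Stat2, a transcription factor of type I interferon signalling, measured 14.6, 15.8 and 16.2 CPM in MeVa2.1, 17.7, 17.0 and 11.2 CPM in MeVa2.1.dOVA, 71.2, 36.8 and 19.6 CPM in MeVa2.2 and 95.6, 59.0 and 295.2 CPM in MeVa2.2.dOVA. It rose by 3.23 between the dOVA lines (SE 0.57, adjusted p = 0.00456 in the edgeR test). MeVa2.2.dOVA replicate 3 and MeVa2.2 replicate 1 were the highest libraries of their lines for Stat2, as they were for 10 and 9 of the GTPases. Irf9, the DNA-binding partner of Stat2, rose by 3.60 between the dOVA lines (SE 0.46, adjusted p = 0.000582) and by 2.22 between the parents (SE 0.43, adjusted p = 0.0145 in the edgeR test). Usp18, a feedback inhibitor at the type I interferon receptor, had 3 pooled counts in each MeVa2.1 line, 750 pooled counts in MeVa2.2 and as many as 7595 in MeVa2.2.dOVA, a ratio of 295 (95% counting interval 101 to 1430) between the parents and of 2440 (834 to 11800) between the dOVA lines.

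Irf1, an early interferon gamma target, measured 9.29, 10.6 and 17.7 CPM in MeVa2.1, 12.5, 23.1 and 8.12 CPM in MeVa2.1.dOVA, 12.6, 6.79 and 14.3 CPM in MeVa2.2 and 25.4, 27.3 and 35.5 CPM in MeVa2.2.dOVA. The MeVa2.2.dOVA libraries were the 3 highest of the 12, and edgeR did not call Irf1 in any comparison of lines (0.97, SE 0.40, adjusted p = 0.148 between the dOVA lines). Over the 12 libraries its r with the mean of the 9 GTPases was 0.685, against 0.984 for Stat2 and 0.931 for Irf9.

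Of the interferon gamma receptor chains 1 of 2 differed between the dOVA lines. Ifngr1 measured 20.1 to 27.3 CPM in MeVa2.1.dOVA and 31.3 to 43.9 CPM in MeVa2.2.dOVA, a difference of 0.54 (SE 0.35, adjusted p = 0.347 in the edgeR test), and its r with the mean of the 9 GTPases over the 12 libraries was 0.054. Ifngr2 rose by 1.03 between the dOVA lines (SE 0.30, adjusted p = 0.0444 in the edgeR test), with 23.7 to 44.7 CPM in MeVa2.1.dOVA and 51.1 to 82.0 CPM in MeVa2.2.dOVA, and its r was 0.560. In MeVa2.2.dOVA replicate 3, where all 10 GTPases were highest, both receptor chains were at the lowest level of the line.

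**Figure D5:**
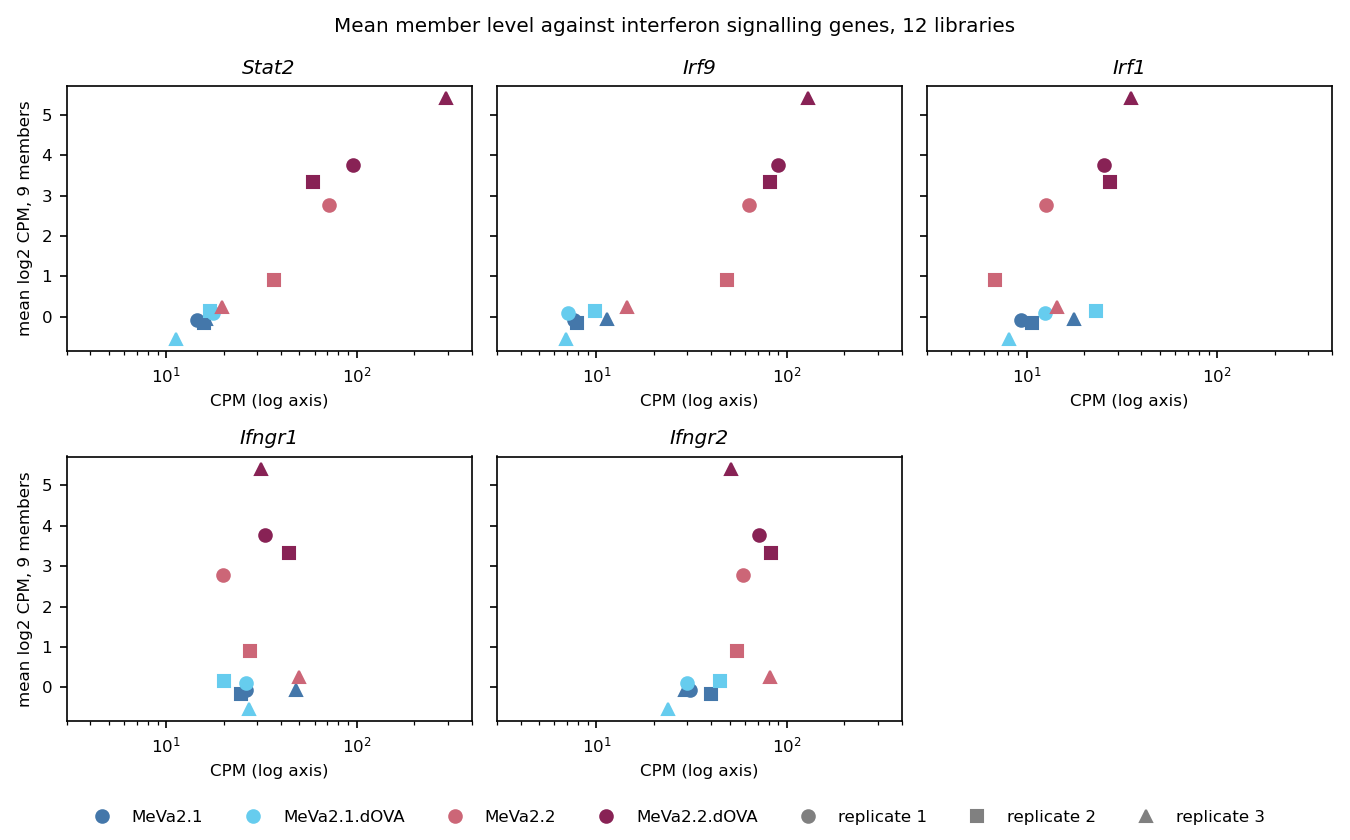
Mean log2 CPM of the 9 tested GTPases (vertical axis) against the level of 5 interferon signalling genes (CPM, log axis) in the 12 libraries; colours mark lines and symbols replicate numbers. The libraries lie along a rising line for Stat2 (r = 0.984) and Irf9 (0.931) and show no such order for Ifngr1 (0.054).

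Genes of the processes these proteins work with were described last. The ubiquitin-like conjugation system of autophagy, which controls where the GTPases settle, had 10 tested genes, and edgeR called 0 in each of the 4 comparisons of lines, with at most 1 at an unadjusted p under 0.05, while DESeq2 called 0. With the replicate number as a block 1 of them, Map1lc3a, was lower between the parents and between the dOVA lines, where the block called 9.51% and 22% of all genes. The prenylation enzymes, which attach the lipid anchor of Gbp2 and Gbp5, had 5 tested genes, of which edgeR called 0 in each of the 4 comparisons, with at most 1 at an unadjusted p under 0.05, and DESeq2 called 0. Of 8 inflammasome and pyroptosis genes 5 were tested. Casp1, the inflammasome protease, fell by 1.98 on the log2 scale between the parents (SE 0.36, adjusted p = 0.01003) and by 1.21 between the dOVA lines (SE 0.35, adjusted p = 0.0469 in the edgeR test). In MeVa2.2.dOVA against its parent the direction was the opposite, with 1.26 for Casp1 (SE 0.36, adjusted p = 0.103) and 2.70 for Casp4 (SE 0.72, adjusted p = 0.0849 in the edgeR test), no overlap between the libraries and a call by DESeq2 for both. Casp1 measured 16.3, 13.2 and 10.2 CPM in the libraries of MeVa2.1, 24.5, 16.3 and 15.7 CPM in MeVa2.1.dOVA, 3.97, 1.95 and 4.26 CPM in MeVa2.2 and 7.44, 5.599 and 11.99 CPM in MeVa2.2.dOVA. With the replicate number as a block Gsdmd was also lower between the parents, and between the dOVA lines Casp4 was higher and Aim2 lower, in the edgeR test, against the same shares of all genes.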

How the data were processed

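The values are whole-number counts per gene, as deposited by the authors for 12 mRNA libraries. The submitters' processing notes name the GRCm38 build and, in no stated order or role, HTSeq 0.10.0, DESeq2 1.30.1 and STAR 2.6.0c. The strand setting of the counting is not given in the sources used here. Tally lines that name no gene held 35.8% to 40.0% of each library and were left out. Genes were filtered with edgeR's filterByExpr (13985 kept), scaled by TMM, and tested with edgeR 4.0.16 (R 4.3.3) by the quasi-likelihood test on all 4 lines (8 residual degrees of freedom), with Benjamini-Hochberg adjustment. CPM used gene counts as library size, and log2 CPM a prior count of 2. Fold changes are log2 and carry SEs. Ratios of pooled counts carry 95% counting intervals, which cover counting error only. Alternatives were DESeq2 1.42.0, another scaling, no filter, the replicate number as a block, only the lines compared and leaving out each library. The test was tested on simulated data.

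All 10 genes were named in each comparison. From each pathway list up to 4 genes past the threshold were named per comparison, by adjusted p, with Ifngr1, Ifngr2, Irf1, Ifng and Ifnb1 in any case, and the 5 genes of known name whose log2 CPM correlated best with the mean of the 9 tested genes. Genes named outside this rule, such as the markers and those that passed only with DESeq2 or a block, were chosen after their values were seen. Some items are not reported here. The members and lists were chosen with earlier results of these data known. Whether replicate numbers pair the samples was checked by the correlation of deviations from line means. For replicates 1 to 3 it was 0.503, 0.488 and 0.534 in the MeVa2.1 pair, 0.429, 0.405 and 0.328 between the parents and 0.105, 0.516 and 0.416 between the dOVA lines, all over 0.1. In the MeVa2.2 pair it was 0.082, 0.64 and 0.521, so that replicate 1 alone stayed below 0.1.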

Additional observations from a re-analysis of the deposited data

How the results depend on the processing

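Of 795 log2 fold changes of single genes under the alternatives, 722 kept their direction and side of the threshold, 26 passed it newly, 36 no longer passed it and 11 changed sign. For MeVa2.2.dOVA against MeVa2.2, where 1 gene was called, DESeq2 called 8 and the fit without a filter 9, against 5.89% and 2.59% of all genes. The fit of the 2 lines alone called 0. The fits leaving out 1 library called 0 to 1, where the 1 was Iigp1, against 0.139% to 3.12% of all genes. The replicate block called 4 (Gbp3, Gbp9, Iigp1 and Igtp), against 7.75% of all genes. For this pair the check of pairing was uneven, at 0.082, 0.64 and 0.521 for replicates 1 to 3. Among the pathway lists described above the block called Gvin1, Irf2, Atg12, Gabarapl1, Casp1 and Casp4. For MeVa2.2 against MeVa2.1, where 2 were called, the 2 lines alone gave 0 and leaving out 1 library 0 to 3, against 1.95% to 5.42% of all genes. For the difference between the pairs, where 0 were called, DESeq2 and the fit without a filter each called 1, against 1.74% and 0.572% of all genes. Leaving out MeVa2.1.dOVA replicate 2 and MeVa2.2 replicate 2 together, an alternative chosen after seeing the data, left 0 and 1 calls in the MeVa2.2 pair and between the parents. Between the dOVA lines 6 to 8 were called when 1 library was left out, against 5.54% to 18% of all genes. DESeq2 called 10 there and the replicate block 9, against 14.7% and 22% of all genes. The cause of these changes was not tested. The 11 changes of sign were all in values that passed no test. In MeVa2.1.dOVA against MeVa2.1, leaving out 1 library moved Gbp2 from -0.024 to 0.519, Gbp5 from -0.503 to 0.801, Gbp6 from -3.096 to 1.043, Gbp9 from -0.433 to 1.903 and Irgm1 from -0.011 to 0.619. Leaving out both replicates 2 named above gave -0.026 for Gbp2 and -3.124 for Gbp6, and the replicate block gave 0.078 for Gbp5. In MeVa2.2 against MeVa2.1 leaving out 1 library moved Gbp5 from -1.099 to 1.664. Depth limits Gbp4, Gbp6, Gbp9 and Iigp1 in the MeVa2.1 lines, where libraries held at most 5 counts of any of them.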
